A study of Mus musculus with 6 samples.

Results

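Granulosa cells are the somatic cells that line the ovarian follicle and surround the oocyte. The 3 wild-type granulosa cell samples of a series of 6 arrays are described here by the signal of each gene on their own arrays, and no other group is compared with them. They were selected by their labels: granulosa cells isolated from 21-day-old females of the C57BL/6J;129S5/SvEvBrd background that had received pregnant mare serum gonadotropin (PMSG) by intraperitoneal injection 44 to 46 hours before. Each sample pooled the cells of 2 to 3 females and is called a pool below, numbered as its label numbers the replicate. The other 3 samples of the series were tumors that arose in Smad1/5/8 mutant mice and were not used. Nothing in the labels names a mutation, a transgene or a second treatment for the wild-type cells, and there was no sample without PMSG, so no value below measures a response to it. The labels do not say whether the pools were collected on separate days.

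PMSG acts mainly through the receptor for follicle-stimulating hormone (FSH) on granulosa cells, which raises cyclic AMP and drives follicles of immature females to grow to the stage before ovulation. Growing granulosa cells divide, are coupled by gap junctions, turn androgens from the neighbouring theca cells into estrogens, and secrete inhibin, activin and anti-Müllerian hormone. The surge of luteinizing hormone (LH), which starts ovulation and the expansion of the cumulus around the oocyte, is normally still to come at this stage.

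Each pool was measured on 1 Affymetrix oligonucleotide array with 45101 probe sets, and the deposited signals are linear intensities scaled to a trimmed mean of 500 on every array. The median probe set had a signal of 120 in pool 1, 105 in pool 2 and 128 in pool 3, and 24106, 22923 and 25049 probe sets reached a signal of 100. Probe sets with a single gene symbol named 18193 genes, and the brightest probe set of a gene stood for it. Values are means ± SD over the 3 pools, and values for single pools are given in the order of pools 1, 2 and 3. A probe set's signal depends on how well its probes bind as well as on the RNA. Among 4827 genes with over 1 probe set and a brightest signal of at least 500, the brightest probe set had a median of 8.42 times the signal of the dimmest of the same gene, and the quartiles were 2.67 and 27.8. An order of signals between genes is therefore an order of array signals and not of RNA copies, while the values of 1 gene in different pools come from the same probes. Pool 2 stood apart from the other pools in the genes that varied, as described with those genes. The number of arrays limits the precision of every SD given.

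Of the 18193 genes, 250 (1.37%) had a mean signal of at least 10000, 4338 lay between 1000 and 10000, 6710 between 100 and 1000, and 6895 under 100. A mean signal of at least 1000 was reached by 25.2% of the genes, and the median gene had a signal of 257. The brightest gene was Inha, the alpha subunit shared by the inhibins, with signals of 38239.8, 40735 and 49454. Its mean was 42809.7 ± 5888. Hsd3b1, which makes progesterone and androstenedione from their precursors, came next with 36586, 41232 and 46353. The ranges of Inha and Hsd3b1 overlapped, and Hsd3b1 was the brighter of the pair in pool 2.

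Inhibin is the hormone through which the follicle restrains the release of FSH by the pituitary, and the 250 bases before the start of Inha are shown because it headed the signal order (RefSeq, GRCm38.p6, chr1:75507359-75507608, plus strand). Capitals mark AGGTCA, the core to which orphan nuclear receptors of the family of Nr5a1 and Nr5a2 bind, and it begins at -69 from the start site.
Inha: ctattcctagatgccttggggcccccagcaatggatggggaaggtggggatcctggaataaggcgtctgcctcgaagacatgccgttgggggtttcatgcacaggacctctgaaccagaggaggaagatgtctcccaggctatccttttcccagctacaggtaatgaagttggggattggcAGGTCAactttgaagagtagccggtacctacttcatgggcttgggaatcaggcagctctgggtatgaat
AGGTCA, read on both strands, was found in 16.3% of all 32851 promoter windows of the table and in 18.1% of all 27025 genes with a window. The windows run from 250 bases before to 50 bases after a start site. The table had a window for 14 of the 18 listed granulosa genes, and 5 of these, Amhr2, Cyp19a1, Grem1, Inha and Nr5a2, held AGGTCA. Of 204 genes with a window and a mean signal of at least 10000, 30 held it (14.7%). These letters were chosen for display after the sequences were read, and a match does not show that a factor binds there.

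The 30 brightest genes had mean signals from 25152 to 42809.7. Among them 13 encode ribosomal proteins, led by Rpl41 (34504 ± 4252) and Rps29 (34308 ± 4411). Eef1a1, the elongation factor that brings aminoacyl-tRNA to the ribosome, had 38525 ± 3905 and Tpt1, a widely expressed growth-related protein, 36721 ± 4779. The actins Actb (29041 ± 3499.8) and Actg1 (25221 ± 3429), the actin-binding thymosin Tmsb10 (29003 ± 3348) and the endoplasmic reticulum chaperone Hspa5 (25152 ± 1175) were also in this group. The genes with known ovarian roles were Inha, Hsd3b1, Gja1, Inhbb, Scd2, Inhba and Ctsl. Gja1, the connexin of the gap junctions between granulosa cells, had signals of 35546, 32258 and 35096. Scd2, a fatty acid desaturase, had 27820.2, 26583 and 30316, and Ctsl, a lysosomal cysteine protease, 27036, 29869 and 30564. The remaining members were Akr1cl (33503 ± 2915), an aldo-keto reductase family gene, Tsc22d1 (31652 ± 1902), a leucine zipper protein, Tceal9 (25902 ± 1907) and Itm2b (25169.9 ± 3757), an integral membrane protein. The largest difference between pools among these 30 genes was 0.62 on the scale of log2(signal + 32), in Inhba.

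**Figure D1:**
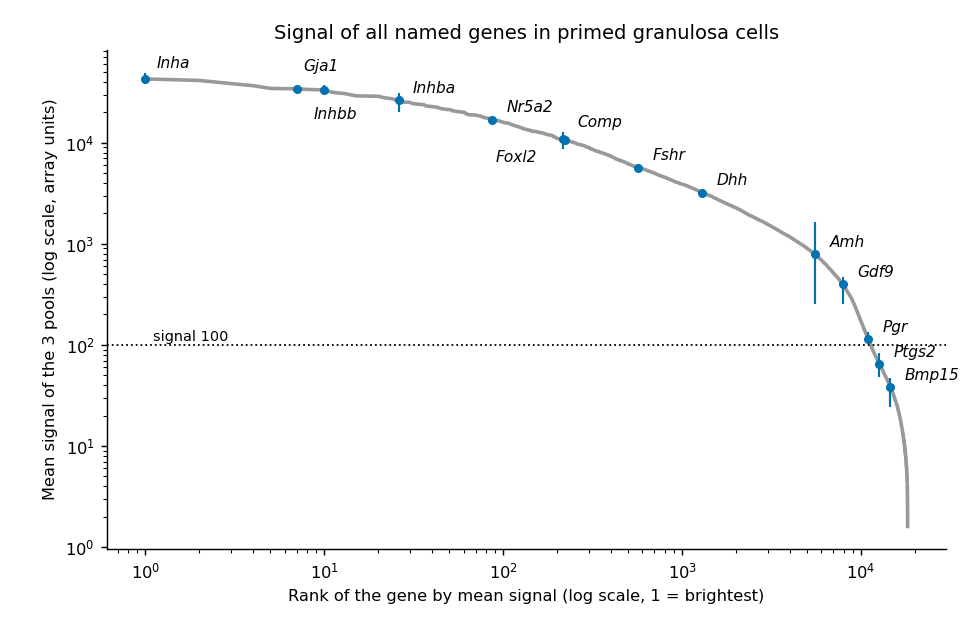
Mean signal of all 18193 named genes in the 3 pools against rank, both axes logarithmic. Points are 14 genes of the lists with bars from the lowest to the highest pool; Inha ranks 1, Fshr 568, and Ptgs2 and Bmp15 lie below the dotted line at 100.

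The listed granulosa markers had high signals in these cells. The list was chosen with earlier results of these data known, and the brightest probe set stood for each gene. Its high signals are therefore a description and no test of the label. Of the 18 listed granulosa genes 16 were among the named genes. Cyp19a1 and Serpine2 were not, so no signal is given for them. All 16 had a signal of at least 100 in every pool, against 57.9% of all genes. Of the 16 genes 9 had a mean of at least 10000, and the median of the list was 10750 against 257 for all genes. Inhbb, the beta B subunit of inhibin and activin, had 30472, 32196 and 37533, and Inhba, the beta A subunit, 28212, 20087 and 30806. Inhbb was the brighter of both in each pool, but their ranges overlapped. Comp, a pentameric thrombospondin of the matrix, had 11022, 12869 and 8585, and Foxl2, the transcription factor that maintains granulosa cell identity, 11642, 9843 and 10542. The ranges of Comp and Foxl2 overlapped, with Comp the brighter in pool 2 only. Fshr, the FSH receptor, had 5739, 6135 and 5185, which lay below every value of Foxl2, and every value of Comp lay below those of Inhba. Other probe sets of some of these genes were dimmer: a second Inhba probe set had 41.8, 8.2 and 6.4, a second Inhbb probe set 13375, 14505 and 13666 and a second Foxl2 probe set 1768, 813 and 1468. The dimmest of the 16 granulosa genes was Amh (789 ± 759), which also varied most between the pools. Several members, such as Gja1, Kitl and Grem1, are also expressed in other cells, so these alone do not mark the cell type.

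The secreted hormones and growth factors had a wide spread of signals. Of 57 named genes, 4 had a mean of at least 10000, 16 of at least 1000, and 13 lay below 100 in all 3 pools. Of all genes 1.37%, 25.2% and 31.6% did so. The 4 brightest were the 3 inhibin subunit genes and Fst, which encodes the activin-binding protein follistatin and had 19703, 23263 and 25117. These 4 genes supply both the activin and inhibin subunits and an activin antagonist. Igfbp5, a binding protein of insulin-like growth factors (IGFs), followed with 4872, 8886 and 6534, and was higher in pool 2 than in either other pool. Kitl, the ligand that granulosa cells present to the Kit receptor of the oocyte, had 4776, 3328 and 4733. Nppc, the precursor of the peptide that keeps the oocyte in meiotic arrest, had 4099, 3424 and 3695, and its receptor Npr2 6418, 10620.1 and 5511. Npr2 was the brightest of the 47 hormone and growth factor receptor genes named. Igf1 had 3185, 3981 and 2573. Below 100 in every pool were the epidermal growth factor family member Ereg, the oocyte factor Bmp15, the BMP antagonist Nog, the fibroblast growth factors Fgf2, Fgf7 and Fgf8, and Hgf, Inhbe, Lif, Nrg1, Pgf, Rln1 and Wnt2.

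Among the receptors of hormones and growth factors no gene reached a mean of 10000, 15 of 47 reached 1000, and 9 lay below 100 in all 3 pools. Of all genes 25.2% reached a mean of 1000 and 31.6% lay below 100 in all 3 pools. After Npr2 and Fshr came Igf1r, the IGF receptor, with 5291, 5680.3 and 4416. Ghr, the growth hormone receptor, had 2029, 4539 and 2809.7, highest in pool 2. Esr2, the estrogen receptor of granulosa cells, had 3022, 2681 and 2974. Ptch1 and Smo, the receptor and the transducer of hedgehog signals, had 2595 ± 498 and 1661 ± 201, and Lifr, the receptor of leukemia inhibitory factor, 2341 ± 342. The members below 100 in every pool were Avpr1a, Gnrhr, Npr3, Vdr, Nr3c2, Erbb4, Vipr1, Rxfp1 and Vipr2.

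Of the 14 receptors of the TGF-beta superfamily, 12 had at least 100 in all pools, against 57.9% of all genes. A mean of at least 1000 was reached by 8, against 25.2% of all genes. Only Acvrl1, a type I receptor known from endothelial cells, lay below 100 in all 3 pools, against 31.6% of all genes. Bmpr2, the type II receptor of bone morphogenetic proteins, had 14427, 17272 and 16464. Amhr2, the receptor of anti-Müllerian hormone, had 10301, 10775 and 7923. The type I receptors Bmpr1b (7092, 9677 and 6338) and Tgfbr1 (6749, 8319 and 7076) lay close to it, and their ranges overlapped. Tgfbr3, a co-receptor that also binds inhibin, had 3085 ± 872, the type I receptors Bmpr1a 2911 ± 167 and Acvr1 1339 ± 103, and the activin receptor Acvr2a 1052 ± 141.

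Steroid synthesis genes covered the whole range of signals. Of 22 named, 6 had a mean of at least 10000, 12 of at least 1000, and 6 lay below 100 in all 3 pools. Of all genes 1.37%, 25.2% and 31.6% did so, and the share of the list below 100 (27.3%) was near that of all genes. Besides Hsd3b1, the bright genes were Cyb5a, a cytochrome that assists steroid hydroxylases (20749, 19348 and 24839.5), Hsd17b1, which converts estrone to estradiol (21051, 19371 and 23788), and Scarb1, the lipoprotein receptor that takes up cholesterol (10937, 9249.5 and 12167). Cyp11a1, which cuts the side chain of cholesterol, had 12207, 10750.1 and 16017, and its electron donor Fdx1 had 11764, 8891 and 17713. Cyp17a1, the androgen-forming enzyme of theca cells, had 5950.2, 2179 and 4717. Hsd17b4, a peroxisomal enzyme, had 2568 ± 195. Star had 382, 347 and 923, and Stard4 (756 ± 261), Akr1c18 (126 ± 27.9) and Cyp21a1 (102 ± 81.3) also lay under 1000; the last 3 were named after their values were seen. The 6 genes below 100 were Cyp11b1 and Cyp11b2 of the adrenal cortex, Hsd17b3 of the testis, and Hsd11b1, Hsd3b2 and Sult1e1. Pool 3 had the highest and pool 2 the lowest value of Cyp11a1, Fdx1, Hsd17b1, Cyb5a and Scarb1. Of the 14 listed steroid genes with a mean of at least 500, 10 were lowest in pool 2, against 32.4% of all 7105 genes with such a mean, and 10 were highest in pool 3, against 2011 of the 7105. With quantile normalization the counts were 10 and 8, and with scaling to the hybridisation controls 11 and 6.

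All 20 cholesterol synthesis and uptake genes had at least 100 in every pool, against 57.9% of all genes. Their median was 1931, and 15 of them had a mean of 1000 or more, against 25.2% of all genes. Scap, which escorts the sterol-sensing transcription factors, was the brightest with 12142, 11689.8 and 11542. Fdps, which makes farnesyl diphosphate, had 9658, 7031 and 11158, the sterol demethylation enzyme Msmo1 7117, 5831 and 7663 and Hmgcs1, which starts the mevalonate pathway, 6440.1, 5850.1 and 7288. These 3 genes were lowest in pool 2 and highest in pool 3. Fdft1 (4400.0 ± 533), Sc5d (3723 ± 547), Sqle (3222 ± 373) and Dhcr7 (2252 ± 358) act at later steps of the pathway. Of the 18 members with a mean of at least 500, 16 were lowest in pool 2, against 32.4% of all such genes, and none was highest there.

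In the extracellular matrix list 64 of 69 genes had at least 100 in all pools, against 57.9% of all genes. A mean of at least 1000 was reached by 31 of them, against 25.2% of all genes, and of at least 10000 by 2. These were Comp and Fbln1, a fibulin of basement membranes and elastic fibres, with 9821, 12290.4 and 9169. The thrombospondins Thbs1 and Thbs4 had 8755, 12718 and 8448 and 3904, 6263 and 4023. All of these, Comp included, were highest in pool 2. Of the 43 matrix genes with a mean of at least 500, 24 were highest there, against 46.9% of all such genes. With quantile normalization the count was 21, against 3060 of all 7107 genes. With scaling to the hybridisation controls it was 18, against 1350 of all 7118. Sparc, a collagen-binding glycoprotein, had 7868, 7992 and 13142 and was highest in pool 3. Vcan, the large proteoglycan of the follicle, had 7770.2, 8766 and 7716 with ranges that overlapped those of Sparc, and the glypican Gpc4 had 6576, 8492 and 7125. Col3a1, a fibrillar collagen chain typical of stroma, had 5237, 6516 and 7425. The 3 members below 100 in every pool were Thbs3, Hapln1 and Lamb3.

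Of 25 matrix proteases and inhibitors, 13 had a mean of at least 1000 and 4 of at least 10000, against 25.2% and 1.37% of all genes. After Ctsl came the secreted serine protease Htra1 (18412, 19228 and 18610.0), the collagen chaperone Serpinh1 (14919, 15553 and 14480.1) and the cathepsin Ctsb (10559, 9247 and 10471). The values of each of these 3 genes lay close together in the pools. Adamts5, a protease that cleaves versican and aggrecan, had 1878, 4067 and 1920.4 and was higher in pool 2. Ctsd (4108 ± 566), Adam17 (2984 ± 73.1), which sheds growth factors from the cell surface, and the inhibitor Timp2 (2225 ± 159) were dimmer. Mmp3, Mmp9 and the urokinase gene Plau lay below 100 in all pools.

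Among 28 junction and adhesion genes Gja1 was followed by Ctnnb1, the beta-catenin that links cadherins to actin, with 15965, 16974 and 16861. Its partner Ctnna1 had 6885, 8167 and 6741 and Cdh2, the N-cadherin of granulosa cells, 4660.0, 6348 and 5841. The integrin chains Itgav (9562 ± 1020.0), Itgb1 (4574 ± 297) and Itgb5 (3474 ± 283) and the tight junction protein Tjp1 (3403 ± 258) completed the 8 brightest. Gja5 and Cldn1 lay below 100 in all pools, and 12 of the 28 had a mean of at least 1000, against 25.2% of all genes.

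Of 103 transcription factor genes 79 had at least 100 in all pools, against 57.9% of all genes. A mean of at least 1000 was reached by 47 of them, against 25.2% of all genes, and of at least 10000 by 8. Nr5a2, a nuclear receptor that granulosa cells need for ovulation, was the brightest with 16458, 18054 and 16356, and its range overlapped that of Ctnnb1, which acts with TCF factors. Sox4 had 12432, 15107 and 14860.3 and Foxo1, the forkhead factor that FSH signalling inactivates, 12022, 13039 and 12533. On these probe sets the values of Nr5a2, Ctnnb1 and Foxo1 differed little between the pools. Other probe sets of Nr5a2 had 14103, 8367 and 13585 and 7934, 6338 and 8796, both lowest in pool 2. Hif1a, the hypoxia-inducible factor, had 13140.1, 9563 and 14342, and the RNA- and DNA-binding protein Ybx1 11274, 9329.9 and 12498, both lowest in pool 2. Foxl2 was among the 8 brightest factors. Fos, the AP-1 subunit that is induced within minutes of many stimuli, came into this group through pool 2: its signals were 5795, 20398 and 5115. Listed factors below 100 in every pool were the Sertoli cell factors Dmrt1 and Sox8, the oocyte factors Nobox and Lhx8, and Eya1, Gli1, Lef1, Lhx2, Nr2f1, Nr4a3, Runx3, Six4 and Smad9.

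**Figure D2:**
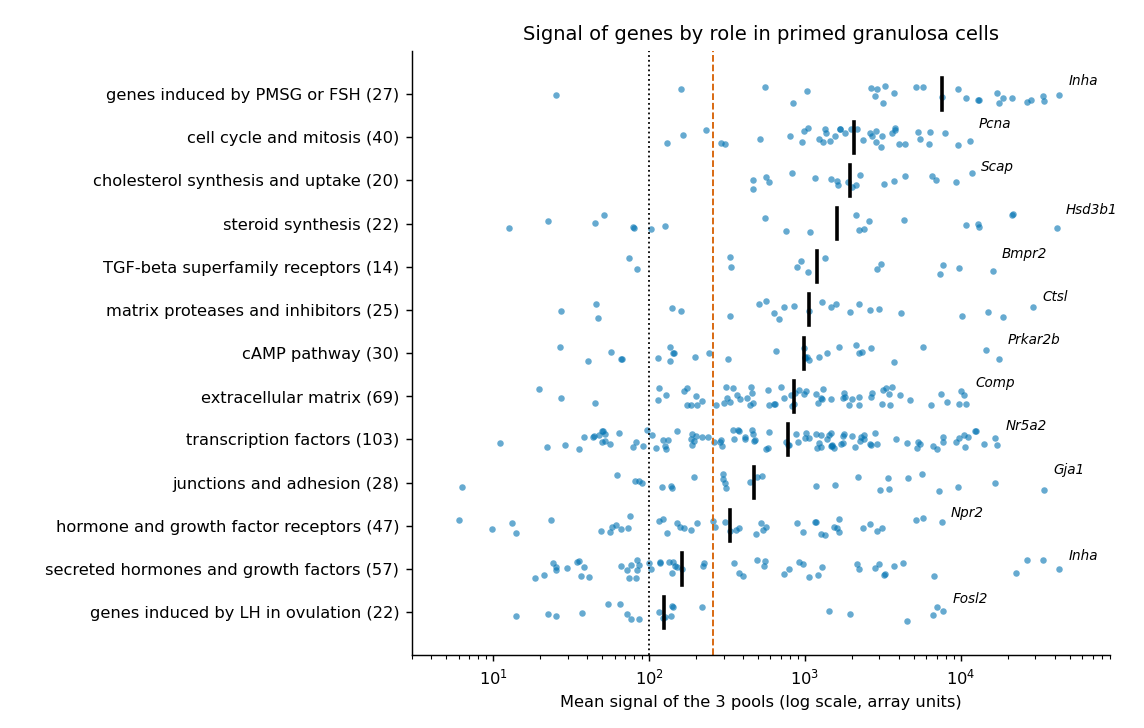
Mean signal over the 3 pools (log scale) of every named gene of 13 role lists, ordered by median, with the number of genes in parentheses. Black bars are medians, the dotted line a signal of 100 and the dashed line the median of all genes, 257; the PMSG or FSH list has the highest median (7517) and the LH list the lowest (124).

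Genes known to be induced by PMSG or FSH had the highest median of the role lists plotted, 7517. Of the 27 named, 12 had a mean of at least 10000, against 1.37% of all genes. Only Snap25 lay below 100 in all pools. After the inhibin subunits, Gja1, Scd2 and Hsd17b1 came Nap1l5, a nucleosome assembly protein family gene, with 17502, 17946 and 20029 and Prkar2b, a regulatory subunit of protein kinase A, with 17436, 16650.2 and 18617. The list was chosen for these genes' known response in such cells, and the measured genes had no unprimed sample beside them.

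Genes known to be induced by LH at ovulation had a median of 124, below that of all genes, while 7 of 22 (31.8%) lay below 100 in all pools, a share near the 31.6% of all genes. These were Ereg, the prostaglandin synthase Ptgs2 (64.4, 82.3 and 48.3), the hyaluronan synthase Has2 (63.5, 75.4 and 24.4), Adcyap1, Il6, Snap25 and Sult1e1. The members above 1000 were Fosl2 (8081, 7649 and 7337), Egr1 (4108, 13916 and 2946), Nrip1 (6175, 7259.7 and 6384), Cebpb (4116, 3768 and 5555), the protease Adamts1 (1855, 2086 and 1865) and Rgcc (1534, 855 and 1879.5). The other probe sets of Nrip1 were all lowest in pool 2, the brightest of them with 5189, 2366 and 6311. Most of these 6 genes encode transcription regulators, which other stimuli also induce. Pgr, the progesterone receptor, which was named after its values were seen, had 108, 104 and 134, close to the signal minimum.

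In the cAMP pathway list 13 of 30 genes had a mean of at least 1000, against 25.2% of all genes. Prkar2b was followed by Gnas, the stimulatory G protein, with 13583, 15060.4 and 14834, and Prkar1a, another regulatory subunit, with 5843, 5383 and 5792. Gnai2, an inhibitory G protein, had 3725 ± 575, the adenylyl cyclase Adcy9 2645 ± 645, the phosphodiesterases Pde8a and Pde7b 2314 ± 258 and 2218 ± 364, and the anchoring protein Akap11 2114 ± 121. Adcy1, Adcy4, Adcy8 and Pde10a lay below 100 in all pools. Of the 17 members with a mean of at least 500, 12 were highest in pool 2, against 46.9% of all such genes. With quantile normalization the count was 9 and with scaling to the hybridisation controls 6.

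Most cell cycle genes had signals above the median gene. All 40 had at least 100 in every pool, against 57.9% of all genes, and 31 had a mean of at least 1000, against 25.2%. The median was 2063, and the dimmest was the inhibitor Cdkn1c (120.1, 116 and 152), named after its values were seen. Pcna, the sliding clamp of DNA replication, had 12522, 9296 and 12497, and Ccnd2, the D-type cyclin through which FSH drives granulosa cell division, 10837, 6685 and 11012. The replicative helicase subunit Mcm7 had 7975, 7181 and 8374, the topoisomerase Top2a 6746, 5425 and 6897 and the proliferation marker Mki67 6816, 5637 and 6359.7. Each of these 5 genes was lowest in pool 2. Cdk4, Cdc20 and Ccnb2 had 5464 ± 449, 5338 ± 627 and 4344 ± 117. Of the 35 members with a mean of at least 500, 28 were lowest in pool 2, against 32.4% of all such genes, and the median deviation from the gene's mean was -0.18 there on the log2 scale. In pool 1, 24 were highest, against 1761 of all 7105 genes; with scaling to the hybridisation controls all 35 were, but so were 5232 of 7118 genes.

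The reference genes set the scale of these signals. Of 13 widely expressed genes 8 had a mean of at least 10000 and none lay below 100, and of 48 ribosomal protein genes 33 had a mean of at least 10000 and 2 lay below 100 in all pools. At the other end, 27 probe sets of bacterial transcripts that were not in the hybridisation mix had a median of 10.8 and at most 80.7 on any array. Of 39 olfactory receptor genes, which are expressed in sensory neurons, 34 lay below 100 in all pools, and the highest mean was 97.7. Y-linked genes, which female cells lack, had means up to 51.4 in 6 genes, and 2 of them passed 100 in 1 pool each: Sry had 29.1, 102 and 22.6, and Kdm5d reached 105 in pool 1. A signal near 100 is therefore not evidence of a transcript. Of 32 genes typical of other organs 17 lay below 100 in all pools, against 31.6% of all genes, and 31 had a mean under 1000. The exception was Tnni3, the cardiac troponin I gene, which had 7880.0, 8979 and 7868 on its only probe set and was named after its values were seen.

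Each list of markers of another cell type had a lower median signal than the granulosa list, and some of their members were bright. Fewer cells of a type and less RNA per cell cannot be told apart in such pooled samples. Of 20 oocyte genes 8 had at least 100 in all pools, against 57.9% of all genes, and none had a mean of 1000. The brightest were Gdf9, an oocyte-secreted growth factor, with 468, 470.3 and 255, and the zona pellucida genes Zp3 (339.9, 291 and 192) and Zp2 (269.5, 315 and 178). Zar1 had 277, 258 and 121. These 4 genes were all lowest in pool 3, where the summed signal of the oocyte list was 1826 against 2884 in pool 1 and 3039.6 in pool 2. Of the 20 oocyte genes 6 lay below 100 in all pools, a share near the 31.6% of all genes. These were Bmp15, Nobox, Ddx4, Pou5f1, Lhx8 and H1f8.

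Of 20 macrophage and myeloid genes 11 had at least 100 in all pools, near the 57.9% of all genes. The brightest were the lysozymes Lyz1 (1219.6, 1292 and 1659) and Lyz2 (676, 685 and 856) and the cathepsin Ctss (265, 417 and 636). All 3 were highest in pool 3, and the summed signal of the list was 4359, 4792 and 5776. Csf1r, the receptor of the macrophage growth factor, had 324 ± 19.7. Of 11 lymphoid genes 9 lay below 100 in all pools, among them all 3 named CD3 chain genes, and Ighm (269 ± 1.8) and Cd8a (201 ± 96.4) were the brightest. The lymphoid sums were 916, 664 and 792.

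Of 18 endothelial genes 12 had at least 100 in all pools, against 57.9% of all genes. Cd34, which other cells also carry, had 1560.3, 1580.2 and 1852, Esam 409.6, 585 and 718, Sox18 484, 483 and 387 and Egfl7 398, 379 and 485. The endothelial sums were 4512, 4862 and 6081, highest in pool 3. Acta2, the actin of smooth muscle, was the brightest of 13 smooth muscle and pericyte genes with 3095, 3781 and 3921, followed by Mylk (1197 ± 109), Tagln (649 ± 123) and Smtn (373 ± 141), and the sums of that list were 6093, 7669 and 7770.4. Among 14 fibroblast and stroma genes Col3a1 was followed by Col1a2 (3553, 3425 and 3412), Dcn (2007, 1729 and 2901) and Ogn (1894, 1421 and 2669). The stroma sums were 15724, 16746 and 19576. Of 12 surface epithelium genes 11 had at least 100 in all pools, against 57.9% of all genes. Upk3b had 1495, 2294 and 2293, Krt8 705, 969.7 and 839, Krt18 414, 632 and 608 and Krt19 353, 567 and 569. These 4 were lowest in pool 1, and the epithelial sums were 4655, 6905 and 6755.

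Of 9 theca and interstitial genes 8 had at least 100 in all pools, against 57.9% of all genes, and the median of the list was 880. Aldh1a1, an aldehyde dehydrogenase, had 8961, 11699 and 12088, while Cyp11a1, Cyp17a1 and Ptch1 are given above. Cyp11a1 and Star also stand in the list of genes induced by PMSG or FSH. Of 12 Sertoli cell genes, those of the cell that takes the place of granulosa cells in the testis, Dhh (3230.4, 3498 and 2926) and Defb19 (3163, 2786 and 2856) had means above 1000, and Gstm6 (600.0 ± 60.6) and Aard (541 ± 19.7) followed. Dmrt1, Sox8 and Tsx lay below 100 in all pools. Of 6 erythroid and platelet genes with a probe set of their own, Alas2, the heme synthesis enzyme of red cell precursors, had 438, 751 and 348, and Itga2b (225 ± 21.9), Pf4 (179.7 ± 39.1) and Slc4a1 (70.9 ± 31.9) were dimmer. The erythroid sums were 851, 1273 and 943. Globin probe sets that match several globin genes were bright and stand in the closing section.

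**Figure D3:**
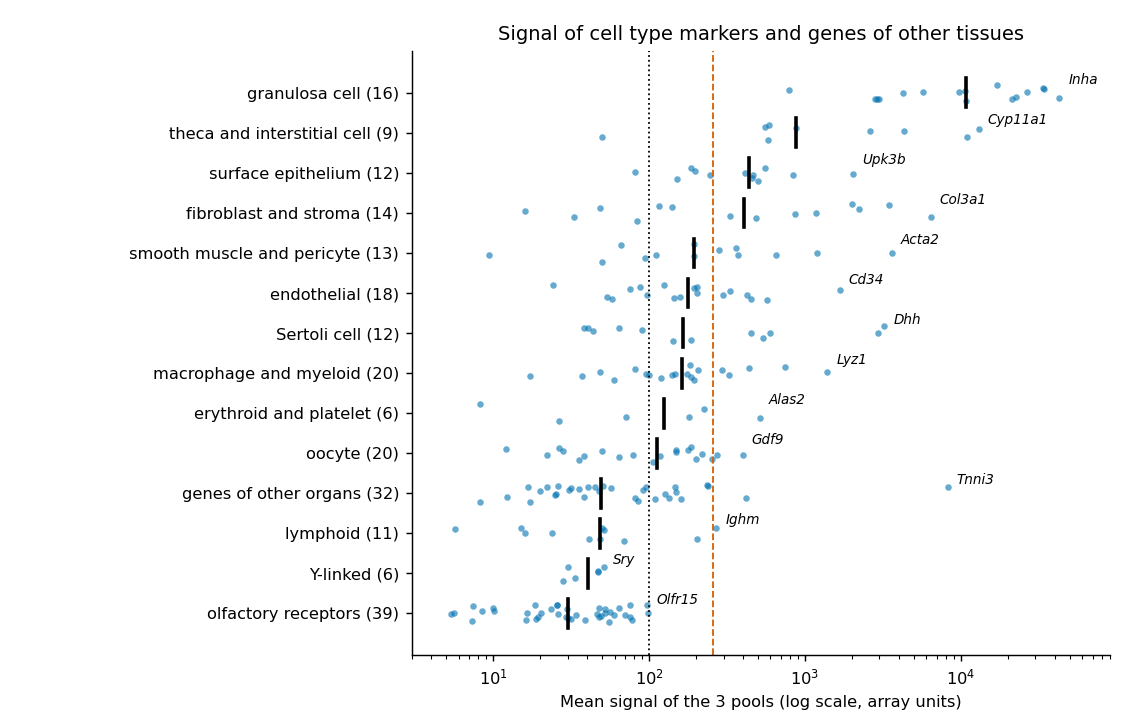
Mean signal over the 3 pools (log scale) of the genes of 11 cell type lists and 3 lists of genes of other tissues, ordered by median, with the number of genes in parentheses and the brightest gene named. Black bars are medians, the dotted line is a signal of 100 and the dashed line the median of all genes; the granulosa list has a median of 10750, and Tnni3 stands alone among the genes of other organs.

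Of the 18193 genes 5757 lay below 100 in all 3 pools (31.6%), 1909 in 1 or 2 of them, and 10527 reached 100 in every pool. The share below 100 in all pools was 0% of the granulosa, cholesterol and cell cycle lists, and also of the surface epithelium list. It was 4.3% of the matrix list, 11.1% of the endothelial and of the theca and interstitial lists, and 12.6% of the transcription factors. Smooth muscle and pericyte genes had 15.4%, hormone and growth factor receptors 19.1% and secreted hormones 22.8%. The steroid list (27.3%), the oocyte list (6 of 20 genes) and the LH list (31.8%) lay near the share of all genes. The highest shares named here were 81.8% of the lymphoid genes and 87.2% of the olfactory receptor genes. A low share was therefore not particular to the granulosa list. The lists were chosen for known roles in the ovary, as markers of cell types or as genes not expected in these cells. These shares therefore describe the lists and not the array.

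Most bright genes varied little between the pools. Among 7105 genes with a mean signal of at least 500 the median SD of log2(signal + 32) was 0.153, and 155 genes (2.18%) had a log2 range of at least 1 between the highest and the lowest pool. The median SD was 0.122 for genes of at least 10000, 0.144 between 1000 and 10000, and 0.176 between 500 and 1000. Of the 155 genes 98 were highest in pool 2, where 46.9% of all 7105 genes were highest, 38 in pool 3 and 19 in pool 1. The lowest pool was pool 3 in 73, pool 2 in 49 and pool 1 in 33. Without pool 2 only 10 genes had such a range, without pool 3 there were 72, and without pool 1 there were 125.

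The 20 genes with the largest SD fell into 12 that were highest and 8 that were lowest in pool 2. The 12 were led by immediate-early genes, which are transcribed within minutes of a stimulus without new protein synthesis. Fosb, an AP-1 subunit, had 279, 2282 and 138, and pool 2 was 16.5 times the lowest pool. Fos, the partner that forms AP-1 with Jun proteins, had 5795, 20398 and 5115. Junb had 258, 1598 and 418 and Jun 4219, 13096 and 5578. In these 4 genes pool 2 lay above both other pools, while Fosl2, another AP-1 gene, was highest in pool 1. Egr1, a zinc finger factor induced by growth factors and gonadotropins, had 4108, 13916 and 2946, and Nr4a1, an orphan nuclear receptor, 899, 3362 and 819.7. Zfp36, which speeds the decay of AU-rich mRNAs, had 512, 1630.1 and 468, Ier2 2314, 6205 and 1978 and the small GTPase Rhob 3187, 8963 and 2948. Pools 1 and 3 lay close together in most of these genes, and pool 2 was 3.01 to 16.5 times the lowest pool in all 12. The other members were Amh, the anti-Müllerian hormone of small growing follicles (456, 1658 and 253), Polr2a, the largest subunit of RNA polymerase II (597, 1362 and 386), and Pacs2, a sorting protein (362, 1091 and 368).

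The 250 bases before the start sites of Fos, Fosb, Junb and Nr4a1 are shown. These genes were picked from those high in pool 2 because their windows held a short element, so sharing it follows from the choice. Capitals mark TGACG or its complement CGTCA, the core of the cAMP response element TGACGTCA to which CREB factors bind. The stretches are from RefSeq, GRCm38.p6: Fos chr12:85473640-85473889 (plus strand), Fosb chr7:19310046-19310295 (minus), Junb chr8:84978749-84978998 (minus) and Nr4a1 chr15:101266596-101266845 (plus).
Fos: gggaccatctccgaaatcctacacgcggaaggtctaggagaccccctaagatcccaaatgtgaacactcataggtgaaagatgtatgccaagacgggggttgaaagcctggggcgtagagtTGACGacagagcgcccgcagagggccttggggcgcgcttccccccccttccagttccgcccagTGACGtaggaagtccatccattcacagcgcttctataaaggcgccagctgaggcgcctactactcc
Fosb: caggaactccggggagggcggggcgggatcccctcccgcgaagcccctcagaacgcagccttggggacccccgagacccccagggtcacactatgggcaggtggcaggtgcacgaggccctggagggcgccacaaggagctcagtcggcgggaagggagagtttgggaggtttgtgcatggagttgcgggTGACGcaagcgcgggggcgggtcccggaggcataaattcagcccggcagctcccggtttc
Junb: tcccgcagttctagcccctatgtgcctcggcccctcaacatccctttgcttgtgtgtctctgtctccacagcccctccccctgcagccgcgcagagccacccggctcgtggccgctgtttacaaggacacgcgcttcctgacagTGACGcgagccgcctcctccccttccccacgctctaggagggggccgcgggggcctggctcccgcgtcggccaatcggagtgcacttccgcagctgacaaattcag
Nr4a1: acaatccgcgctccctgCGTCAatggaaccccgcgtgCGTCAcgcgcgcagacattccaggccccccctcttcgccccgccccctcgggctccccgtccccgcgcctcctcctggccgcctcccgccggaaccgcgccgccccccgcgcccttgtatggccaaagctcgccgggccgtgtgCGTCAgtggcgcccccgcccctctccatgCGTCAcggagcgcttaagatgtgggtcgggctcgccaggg
The element begins at -129 and -66 in Fos, at -60 in Fosb, at -106 in Junb, and at -233, -213, -69 and -40 in Nr4a1. Of the 12 genes high in pool 2, 9 had a window in the table, and 5 of them (Fos, Fosb, Junb, Nr4a1 and Polr2a) held TGACG on either strand. None of 5 matched genes among the 8 that were low in pool 2 held it, and so few genes cannot show a difference. TGACG was present in 20.8% of all windows, in 23.0% of all 27025 genes with a window and in 41.2% of the genes with a mean signal of at least 10000. The full TGACGTCA was in none of the 9 genes, in 1.79% of all windows and in 2.0% of all genes with a window. The CArG box, which binds serum response factor, was in Zfp36 only, in 1.63% of all windows and in 1.8% of all genes with a window. The letters were chosen after several motifs had been searched, and a match is a description of sequence, not a site in use.

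The 8 genes lowest in pool 2 were of mixed function. Pappa, a protease that frees IGF from its binding proteins, had 877, 130.4 and 789.8. Crim1, a transmembrane protein that binds growth factors, had 7667, 2507 and 7184, and Anp32a, a nuclear phosphoprotein, 3106, 613 and 2681. Med1, a Mediator subunit that nuclear receptors contact, had 1697, 489 and 1282. The splicing regulator Rbfox2 had 805, 151 and 778, Epb41l5 841, 189 and 894, the chloride transporter Clcn5 1097, 368 and 1867 and the palmitoyltransferase Zdhhc21 2114, 733 and 2237. In all 8 genes pools 1 and 3 were closer to each other than to pool 2 on the log scale. Of the 20 genes, 11 had only 1 probe set with a mean of at least 200. Pappa and Jun had a second probe set with a range of at least 1, and other probe sets of Anp32a, Rbfox2, Epb41l5, Clcn5, Med1 and Crim1 had smaller ranges. Among those with a mean of at least 200, the ones of Rbfox2, Clcn5 and Crim1 were also lowest in pool 2. That of Epb41l5 (514, 579 and 640) was lowest in pool 1. Anp32a had 1648, 1295 and 1794 and 1338, 901 and 863, lowest in pools 2 and 3. Med1 had 761, 1005 and 1006, 699, 525 and 492, and 292, 201 and 229, lowest in pools 1, 3 and 2. The other probe set of Zdhhc21 went the other way, with 1329, 1436 and 1119.7, highest in pool 2.

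**Figure D4:**
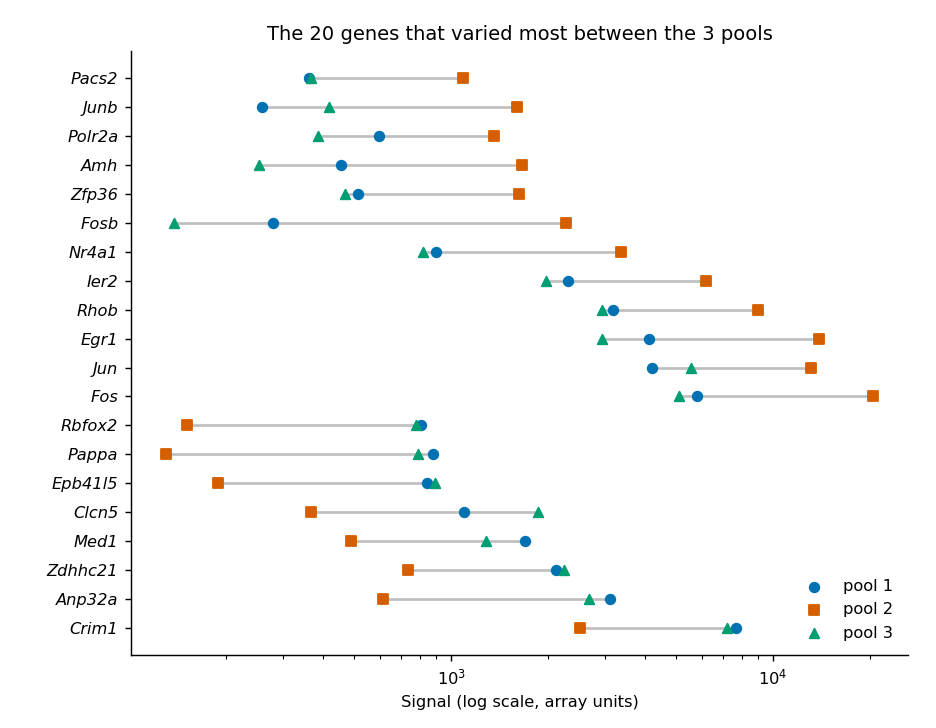
Signal in each of the 3 pools (log scale) of the 20 genes with the largest SD of log2(signal + 32) among genes with a mean of at least 500; a grey line joins the lowest and highest pool. The upper 12 genes are highest in pool 2 (squares) and the lower 8 lowest in pool 2.

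A second view asked for at least 2 probe sets of a gene with a mean of at least 200, a log2 range of at least 1 and the same highest and lowest pool. It held for 34 genes, of which 22 were lowest and 10 highest in pool 2. The number of genes with enough probe sets for this view was not counted. Among all 7105 genes with a mean of at least 500, 32.4% were lowest and 46.9% highest in pool 2. The balance was the reverse of that of the 155 genes above, of which 98 were highest and 49 lowest there. Ccn1, a matricellular protein whose gene is an immediate-early gene, was highest in pool 2 on 4 probe sets, the brightest with 1129, 3184 and 1135. Socs3, an inhibitor of cytokine signalling that was named after its values were seen, was also highest in pool 2, and 3 of its probe sets shared the pattern. Ccnd2 had 7 probe sets and all were lowest in pool 2, from 10837, 6685 and 11012 on the brightest to 461, 161 and 409 on the dimmest. Star, the protein that carries cholesterol into mitochondria, had 3 probe sets with the highest signal in pool 3, the brightest with 382, 347 and 923. Ptgfr, the receptor of prostaglandin F2 alpha, was highest in pool 3 too, with 531, 279 and 879.6. Gas2l3 shows how probe sets can differ: 2 of its probe sets had 1831, 203 and 1261 and 1515, 213 and 1149, while the brightest had 1269.6, 1173 and 1124. Ywhaz likewise had 5 probe sets of small range and 2 that were low in pool 2, the larger range with 1079, 158 and 1415. Meg3, a long noncoding RNA of an imprinted region, had 5479, 9318 and 2827 and 3534, 5692 and 1883 on 2 probe sets.

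Lists of genes also differed by pool in a smaller measure. Besides the cell cycle, cholesterol and steroid genes, which were low in pool 2, 8 of 10 TGF-beta superfamily receptor genes with a mean of at least 500 were highest in pool 2, against 46.9% of all genes, and none was lowest there. Other probe sets of Bmpr1b, with 1302, 1016 and 1219.5 and 1121, 1025 and 1118, were lowest in pool 2. All 3 surface epithelium genes with such a mean were lowest in pool 1, against 29.8% of all genes. Ribosomal protein genes were highest in pool 3 in 36 of 42 cases, against 2011 of all 7105 genes. The low cell cycle and cholesterol signals of pool 2 were also seen with quantile normalization, where 29 of 35 and 16 of 18 genes were lowest in pool 2. With scaling to the hybridisation controls, 32 of 35 and 17 of 18 were. That scaling moved the median gene of pool 1 to 0.17 above its mean over the pools and put 3423 of all 7118 genes lowest in pool 2. The receptor count was 8 with quantile normalization and 5 with scaling to the controls, with 1 and 2 receptor genes lowest in pool 2, and the ribosomal count was 20 and 17, so both depended on the scaling.

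**Figure D5:**
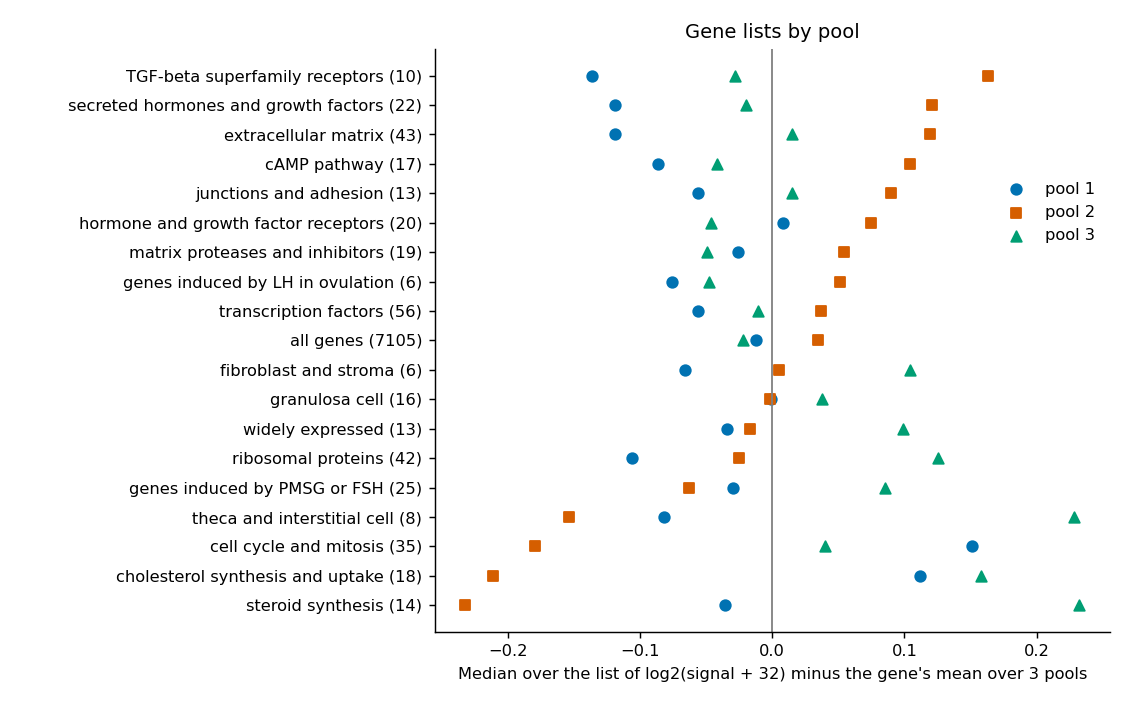
Median over each list's genes with a mean of at least 500 of log2(signal + 32) minus the gene's mean over the 3 pools, for each pool; the number of genes stands in parentheses. Steroid, cholesterol and cell cycle genes lie lowest in pool 2 (squares), and TGF-beta superfamily receptors lie highest there.

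Measures of the arrays also differed in pool 2. The 3' control probe set of Actb stood above the 5' one by a log2 difference of 0.33 in pool 1, 0.67 in pool 2 and 0.34 in pool 3, while the same difference for Gapdh was -0.40, -0.32 and -0.45. Control probe sets of 18S ribosomal RNA were dim in pool 2, and the fewest probe sets reached 100 there. The part of these measures, of the oocyte, myeloid, erythroid and epithelial signals given above and of the cells' handling in the differences between pools was not tested. Each pool is a single sample, so the differences between pools have no error of their own.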

How the data were processed

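RNA of the 3 pools was biotin-labelled and hybridised to 1 array each, after extraction with an RNeasy kit and on-column DNase, per the labels' protocols. The deposited intensities are linear signals, 1 per probe set, made by the authors with MAS5 per the submitters' processing notes, with no version given there. Each array was scaled to a trimmed mean of 500 with 2% left out at each end, which moved almost nothing, since the deposited values already had it.

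GEO's platform annotation gave the gene names. Among 45101 probe sets there were 64 controls, and 34945 had 1 symbol, 932 several and 9160 none. Of the 34945, 34741 had an identifier in the RefSeq gene table of GRCm38.p6, and 0 symbols changed. The probe set with 1 symbol and the highest mean signal stood for a gene. Detection calls were not used; a signal minimum of 100 stood in for them, above the highest signal of unspiked bacterial controls (80.7). Variation is the SD or range of log2(signal + 32) among genes with a mean of at least 500.

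No test was made, since 1 group was described. The spread covers pools labelled as replicates, and nothing in the labels says they came from separate days; the variation between single females was not measured. The members and the gene lists were chosen with earlier results of these data known. Named were the 5 granulosa markers Inhba, Inhbb, Fshr, Foxl2 and Comp, the 30 brightest genes, up to 8 of each role list and 4 of each marker list with their members below 100, the 20 most variable genes and up to 20 with 2 agreeing probe sets; other names are marked. Calculations were tested on simulated data and used Python 3.11.15, pandas 2.3.3, numpy 2.4.6 and matplotlib 3.10.9. Promoter windows were matched by symbol. Alternatives were another scaling, probe set, minimum, pseudocount or filter and leaving out each pool; scaling to the hybridisation controls was added after seeing the data.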

Additional observations from a re-analysis of the deposited data

Results flagged for a closer look

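Outliers by sample were not looked for, since the group held 3 samples. Some signals lay outside the named genes. The 3 control probe sets of 18S ribosomal RNA had signals of 739.7, 996.8 and 647.9 in pool 1 and of 379.3, 449.0 and 380.9 in pool 3, above the unspiked bacterial controls, while in pool 2 they had 38.8, 35.4 and 17.0. Globin probe sets that match several globin genes were bright, and 3 of the 4 lay within the range of the 30 brightest named genes. The beta globin probe set had a mean signal of 25256.5, and the 3 alpha globin probe sets had 5252.3, 33572.2 and 29593.1. The beta globin signal was 21797, 26703 and 27270.1 in pools 1, 2 and 3, so that all pools carried it. Hba-a1 on its own probe set had signals of 5.9 to 12.1. A further 38 probe sets with no symbol had a mean signal of at least 10000, beside 118 with several symbols and 358 with 1.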

How the results depend on the processing

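The count of genes with a mean signal of at least 10000 (250) became 118 with the median probe set of each gene and 453 when probe sets with several symbols also counted; of the 30 brightest genes these settings kept 15 and 11, while quantile normalization and scaling to the hybridisation controls kept 30. The count of genes below 100 in all pools (5757) became 2761 with a minimum of 50. The count of genes with a log2 range of at least 1 (155) became 2987 with no filter on the mean signal, 309 with a mean of at least 200, and 10 to 125 when 1 pool was left out, the lowest without pool 2 and 72 without pool 3; leaving out a pool also leaves a range over fewer samples. Of the 20 most variable genes 0 kept a range of at least 1 without pool 2 and 12 kept it with the median probe set. The remaining settings changed these 3 counts by less than 1.5 times. With the median probe set, Inhba had a mean of 18.8, Inhbb of 13849 and Foxl2 of 1349.8; the other 7 settings moved the mean signals of the 5 markers by less than 1 SD. Unspiked controls had signals up to 80.7 and Y-linked genes means up to 51.4. Single Y-linked values passed 100, which limits what can be said of dim genes.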
